A study of Mus musculus and Rattus norvegicus with 24 samples.

Results

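Titin, the product of the gene Ttn, is described here across 24 single cells in 3 groups of 8. It is 1 gene of the 9595 listed in the deposited count table, taken by its row name, as counts and as a share of each cell's total. Ttn was chosen with its values in these cells known, so its levels are a description and carry no test. The labels give all 24 cells as cardiomyocytes. Cultured cells were derived from a mouse embryonic stem cell line with the genotype mESCIsl1-Cre; Rosa-RFP; aMHC-GFP and stayed 30 days in vitro. Transplanted cells came from that same genotype and spent 30 days in a neonatal rat heart, from which they were isolated. Adult cells were isolated from ventricular tissue of adult rats labelled WT. The Cre is named for Isl1, a gene of cardiac progenitors, and the GFP for the promoter of Myh6, but the labels do not say which reporter guided the sorting or which cells were picked by hand. No animal, litter or culture is named, so each group counts as 1 sample, cells are not replicates of a condition, and no test between groups was possible. The build named for the processing is the mouse build mm10 for the rat cells too, and how rat Ttn reads fared on it was not tested.

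Titin is a giant protein of striated muscle that runs from the Z-disc, where actin filaments are anchored, to the M-band in the middle of the sarcomere. Its Z-disc end binds telethonin and alpha-actinin, its I-band part acts as a molecular spring that sets passive stiffness, its A-band part lies along the thick filament of myosin, and its M-band end binds myomesin. The RNA is spliced into stiffer and more compliant forms, under control of Rbm20 among other factors, and hearts shift towards stiffer titin as they mature. Truncating changes of the human gene are a known cause of dilated cardiomyopathy. The deposited counts are per gene, so they hold no measure of these splice forms.

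In mm10, Ttn (ENSMUSG00000051747.14) lies on the minus strand of chromosome 2, from 76703980 to 76982547, a span of 278568 bases. GENCODE M21 lists 25 transcripts of it. The longest has 347 exons and 106824 bases, and the union of all exons is 116825 bases, against a median of 4568 bases over the listed genes with an annotation. Only 1 listed gene, D10Wsu102e, has more exon bases. The antisense gene Gm13938, on the plus strand from 76722776 to 76786708, overlaps Ttn and is not among the listed genes. The library protocol describes no step that marks strand, so reads of the overlap cannot be told apart. The 250 bases before the annotated start of the mouse gene, chr2:76982548-76982797, are printed 5′ to 3′ on the minus strand from the RefSeq table of GRCm38.p6, because they are the start region from which these transcripts are annotated to be made in the mouse cells. Capitals mark, in order, a match to the outer letters of the MEF2 motif and a TATAA.
Ttn start region: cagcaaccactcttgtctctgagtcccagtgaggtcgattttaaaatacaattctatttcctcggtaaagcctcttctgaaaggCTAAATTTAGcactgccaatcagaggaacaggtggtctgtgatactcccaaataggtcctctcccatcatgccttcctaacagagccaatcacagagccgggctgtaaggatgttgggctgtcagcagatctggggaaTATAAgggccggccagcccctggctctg
TATAA, the core of the TATA box, begins 28 bases before the start and is found on either strand in 22.8% of 32851 mouse promoter windows of this length. The outer letters of the motif of MEF2 factors, CTA and TAG with any 4 bases between them, begin 166 bases before it and are found in 3.20% of the windows. CANNTG, the E-box of basic helix-loop-helix factors, occurs 1 time, 138 bases before the start, and in 66.2% of the windows. The letters GATAA, which zinc finger factors of the heart such as Gata4 can bind, have no match on either strand and are found in 22.6%. These 4 searches covered both strands, the matches do not overlap, and a match is a stretch of letters, not a shown binding site. The rat promoter of the adult cells is not shown.

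Depth and library make-up differed between the groups. Totals of the listed genes were 16099 to 60789 counts in cultured, 88796 to 344224 in transplanted and 108546 to 223744 in adult cells. Of the 12 cardiomyocyte markers on the list used here, 11 had counts in each group, with Nkx2-5 at 0 in cultured and Myl7 at 0 in transplanted and adult cells. Together they took 0.00837 to 2.68% of counts in cultured, 14.0 to 21.95% in transplanted and 13.7 to 21.6% in adult cells. Of the marker lists for other cell types, 9 of 11 fibroblast, 4 of 10 endothelial, 5 of 7 smooth muscle and pericyte, and 2 of 10 macrophage and leukocyte genes were listed. Fibroblast markers took 0 to 0.209% of counts per cultured cell, 0 to 0.000511% per transplanted and 0 to 0.00175% per adult cell. Of the 9 listed fibroblast genes, 4 (Col1a2, Pdgfra, Fn1 and Vim) had counts in cultured cells, 1 in transplanted and 2 in adult cells. The fibroblast genes Col3a1, Dcn and Postn were at 0 in all 3 groups. The endothelial, smooth muscle and macrophage lists each took at most 0.0362% of any cell. Their part in the Ttn differences was not tested.

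Ttn divided the cultured cells. Cells B, C, D and E held 2685, 2499, 2849 and 1254 Ttn counts, cell A held 14, and cells F, G and H held none. As shares of each cell's counts, Ttn made up 0.0707% (95% exact binomial interval 0.0386 to 0.119) in A, 4.42% (4.25 to 4.58) in B, 15.1% (14.5 to 15.6) in C, 10.2% (9.86 to 10.6) in D and 7.79% (7.38 to 8.21) in E. In C and D no listed gene had more counts, and in E and B Ttn ranked in place 2 and 3. A count of 0 allows a share of up to 0.0162% in F, 0.0132% in G and 0.0126% in H, taking 3 counts as the limit. Intervals and limits cover counting error only, since amplified reads without molecular identifiers are not independent molecules.

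All 8 transplanted cells had Ttn counts, 116, 904, 85, 314, 209, 80, 431 and 638 in cells A to H. The shares were 0.0817%, 0.728%, 0.0957%, 0.201%, 0.107%, 0.0529%, 0.430% and 0.185%. Cells B and G stood highest, and F lowest with an interval of 0.0419 to 0.0658%. The highest share was 13.8 times the lowest. The rank of Ttn among the genes of a cell ran from 25 in B to 319 in F.

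All 8 adult cells had Ttn counts too, 571, 863, 254, 540, 169, 939, 1355 and 467 in cells A to H. They made up 0.255%, 0.730%, 0.176%, 0.352%, 0.121%, 0.865%, 0.788% and 0.221% of counts. Cells B, F and G lay highest, and E lowest with an interval of 0.103 to 0.140%. The highest share was 7.17 times the lowest, and the rank ran from 17 in F to 168 in E.

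**Figure D1:**
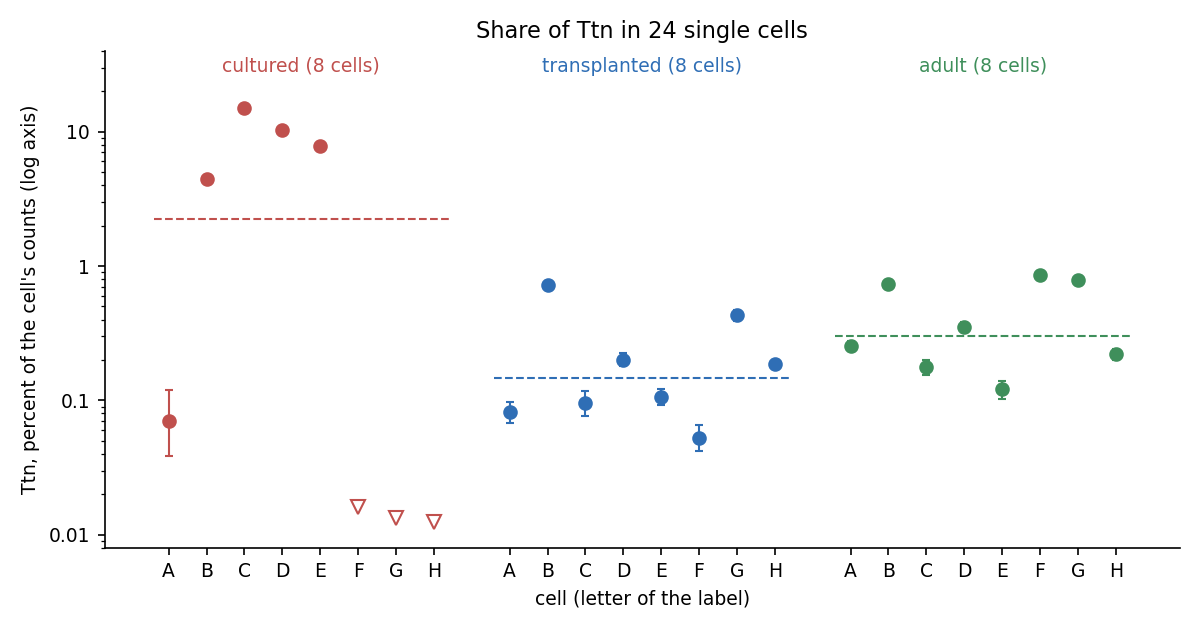
Ttn as a percent of each cell's counts, on a log axis, for the 8 cultured, 8 transplanted and 8 adult cells. Bars are exact 95% binomial intervals, dashed lines are medians over cells, and open triangles mark the limit of 3 counts in the 3 cultured cells without a Ttn count; cultured cells lie both above and below every transplanted cell.

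The cultured cells thus lay on both sides of the other groups. Cultured B, C, D and E exceeded every transplanted and every adult cell, the limits of F, G and H lay below every transplanted and adult share, and A lay within the transplanted range and below all adult cells. Scaled to the total of the shallowest cell, 16099 counts, the lowest transplanted cell would hold 8.51 Ttn counts and the lowest adult cell 19.4. The transplanted and adult ranges overlapped. Of the adult cells, 5 lay within the transplanted range and 3 above it, and 4 transplanted cells (A, C, E and F) lay below every adult cell.

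Summed over cells and scaled to 1000000 counts (CPM), Ttn stood at 45112 CPM (exact 95% Poisson interval 44199 to 46038) in cultured, 4057 CPM (3947 to 4169) in adult and 2131 CPM (2053 to 2212) in transplanted cells. Medians over cells kept this order, at 2.24% of counts in cultured, 0.303% in adult and 0.146% in transplanted cells. The mean share was 4.70% ± 5.80 (SD over 8 cells) in cultured, 0.439% ± 0.304 in adult and 0.235% ± 0.232 in transplanted cells. The SD exceeded the mean in the cultured group. In both neighbouring pairs of this order, the means differed by less than the larger SD. The median over cultured cells, at 22438 CPM, was below the group sum because the counts sat in 4 cells.

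Ttn was 21.2-fold lower in transplanted than in cultured sums (exact conditional 95% interval 20.3 to 22.1) and 11.1-fold lower in adult than in cultured sums (10.7 to 11.5). The same cultured cells served both ratios. The adult sum was 1.90-fold higher than the transplanted sum (1.82 to 1.99). Leaving out any 1 cell kept the first ratio between 16.8-fold and 28.4-fold lower, the second between 8.84-fold and 13.0-fold lower, and the third between 1.62-fold (without adult G) and 2.55-fold higher (without transplanted B). On total counts most measured genes were lower in the transplanted sum. The median log2 ratio of the 4958 genes with at least 10 counts was -5.63, with a pseudocount of 1 CPM. It was -4.53 with genes at 0 set to 3 counts. Ttn, at -4.40, was above 53.1% of these genes. The smaller cultured totals favour this direction. Mybphl, with 13 cultured and no transplanted count, counted as at least 2-fold lower. Acta1, with 13 transplanted and no cultured count, counted as neither. Against cultured cells the adult ratio of Ttn was -3.48 on the log2 scale, with a median of -3.85 over 5132 genes, and against transplanted cells it was 0.93, with a median of 0.37 over 3501 genes. Ttn thus lay near the middle of the measured genes in all 3 comparisons. The scale moved the comparisons with cultured cells. The transplanted to cultured ratio, 0.0472 on counts, was 0.0893 with TMM factors, 0.0269 per exon length and 0.00197 relative to the 12 cardiomyocyte markers, and the adult to cultured ratio, 0.0899, became 0.170, 0.0512 and 0.00417. TMM factors add 0.92 to the log2 ratio of every gene in both, and the marker total adds -4.58 and -4.43, so neither moves the place of Ttn among the genes.

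Division by exon length changed the place of Ttn among genes. In counts of the group sums Ttn ranked in place 2 of 7310 genes with counts in cultured, 84 of 3129 in transplanted and 52 of 3651 in adult cells. Per exon base, the ranks were 66 of 7255, 1229 of 3110 and 925 of 3637. On a scale of counts per exon base that sums to 1000000 over the genes (TPM), the level of Ttn was 1140 in cultured, 30.7 in transplanted and 58.4 in adult cells. Myh6, the alpha myosin heavy chain, had a TPM level of 1184 in cultured, 273.8 in transplanted and 366 in adult cells. Actc1, cardiac actin, had 1647, 23403 and 15821 TPM, and Tnnt2, cardiac troponin T, had 70.2, 1004 and 1312 TPM. Ttn therefore stood level with Myh6 per base in the cultured sum and below it in the other sums, while Actc1 and Tnnt2 went the other way. Without cultured D the Myh6 level in the cultured sum was 1436 CPM in place of 2697 CPM, and without cultured A that of Actc1 was 397 CPM in place of 902 CPM. Without D that of Tnnt2 was 89.7 CPM in place of 184 CPM.

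The proportion of Ttn to the myosin heavy chains was also taken cell by cell, since titin spans the myosin filament. In cultured cells A to E, the per-base ratio of Ttn to Myh6 and Myh7 together was 0.269, 1.76, 0.542, 0.496 and 1.91, and cells F, G and H had none of the 3 genes. The ratio in A rests on 14 Ttn and 3 Myh6 counts, and that in E on 5 Myh6 and 42 Myh7 counts. In transplanted cells A to H it was 0.0474, 0.185, 0.0506, 0.0569, 0.0778, 0.0188, 0.172 and 0.557. Cell H stood apart, with 638 Ttn and 66 Myh6 counts. In adult cells A to H the ratio was 0.0765, 0.243, 0.0994, 0.139, 0.111, 0.166, 0.216 and 0.132. Every cultured value lay above every adult value, and the transplanted range covered the whole adult range and reached into the cultured one. In the group sums the ratio was 0.739 in cultured, 0.110 in transplanted and 0.150 in adult cells. Myh7, the beta chain, had 1048 CPM in 4 cultured cells (527 CPM without cultured C), 22.3 CPM in 5 transplanted cells (8.13 without E) and 122 CPM in 6 adult cells (17.0 without D).

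**Figure D2:**
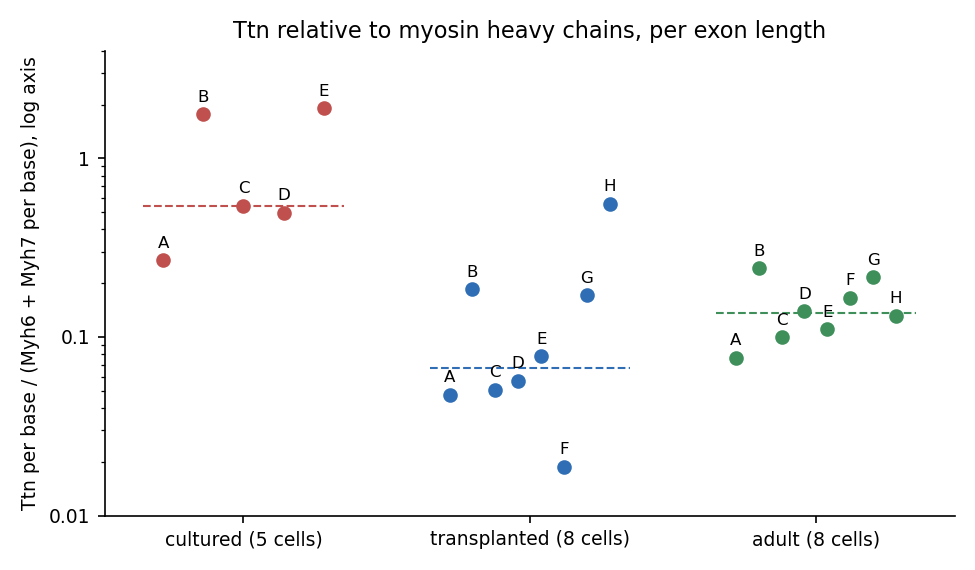
Ratio of Ttn to the sum of Myh6 and Myh7, each as counts per exon base, on a log axis, for the 5 cultured, 8 transplanted and 8 adult cells with counts of a myosin heavy chain. Letters name cells and dashed lines are medians; the adult cells sit between 0.0765 and 0.243, the cultured cells between 0.269 and 1.91.

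Other features of the libraries moved with Ttn. In cultured cells A to H the 20 longest listed genes other than Ttn took 0.227%, 1.60%, 1.81%, 1.67%, 2.56%, 0.622%, 0.163% and 0.0837% of counts, highest in B to E as for Ttn. They took 0 to 0.135% in transplanted and 0 to 0.256% in adult cells. Over the 8 cells of a group, Spearman's rho between the Ttn share and this share was 0.854 in cultured, 0.857 in transplanted and 0.714 in adult cells, given as a description since the cells of a group share their source. The list includes muscle genes, such as Ryr2, the calcium release channel. Without the muscle genes on it, a setting chosen after the values were seen, rho was 0.756, 0.611 and 0.551.

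**Figure D3:**
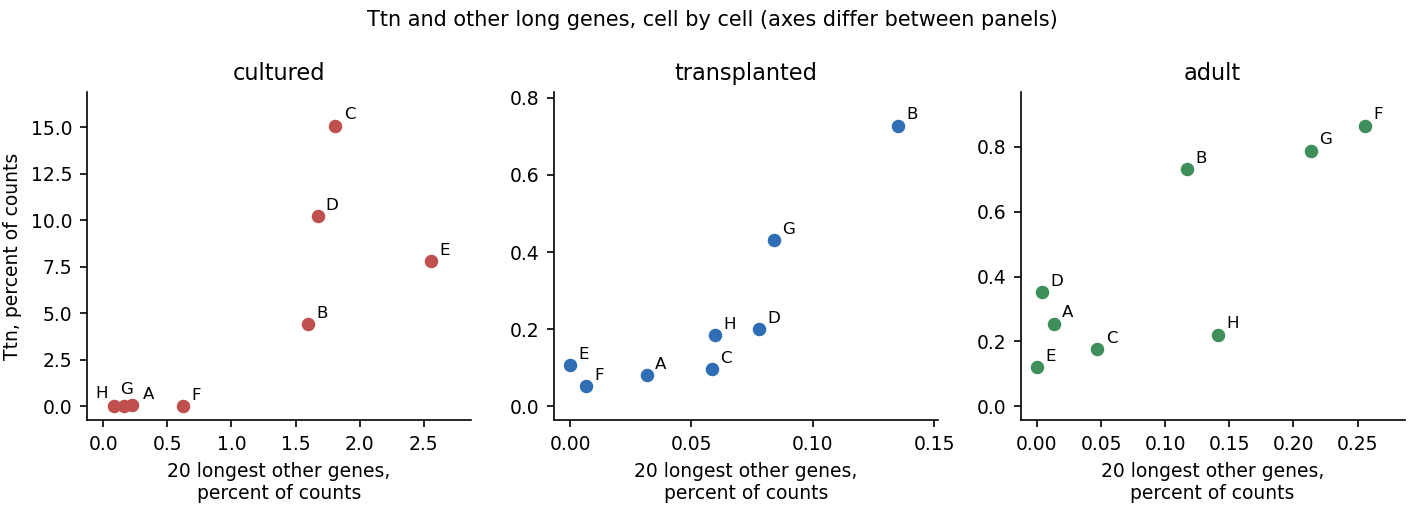
Ttn share against the summed share of the 20 longest other genes, both in percent of a cell's counts, with a panel for each group of 8 cells and different axes. Letters name cells; in each panel the cells with the most Ttn (cultured C, transplanted B, adult F) also lie to the right.

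The exon length behind the counts was also longest in B to E. Without Ttn, the count-weighted median exon length was 3766 bases in cultured A, 6983 in B, 6544 in C, 6785 in D, 6779 in E, 4933 in F, 3730 in G and 4221 in H. It was 1950 to 2304 bases in transplanted and 2044 to 2353 bases in adult cells, and its rho with the Ttn share was 0.659, 0.610 and 0.822 in cultured, transplanted and adult cells. The adult lengths were tied, at 2044 bases in A, C and E and 2063 in B, D, G and H, with 2353 in F. The tied values are the exon lengths of the abundant genes Myl3 and Tnni3, so the adult rho rests on few distinct values. Rpph1, the RNA of RNase P, took 2.51 to 5.48% of counts in cultured B to E and 0.0202 to 0.0574% in A, F, G and H. Rn45s, the ribosomal RNA precursor, took 8.59 to 13.2% in B to E and 1.29 to 5.44% in the others. The share of the 12 cardiomyocyte markers went the other way in the groups from hearts, with a rho to Ttn of -0.452 over transplanted and -0.667 over adult cells, and 0.561 over cultured cells. In cultured F, G and H, 3, 1 and 2 of the 12 markers had counts. Markers of the other cell types together took 0.101%, 0.138%, 0.175%, 0%, 0.0248%, 0.189%, 0% and 0.209% of counts in cultured A to H. Cells H and F, without Ttn, were thus highest in them, and cell G, also without Ttn, had none. What these measures contribute to the Ttn differences was not tested.

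Among single long genes, Kcnq1ot1, a nuclear antisense RNA of the imprinted Kcnq1 region with 93092 exon bases, had 508, 102, 153 and 250 counts in cultured B to E and 95 in F, none in transplanted cells and 42 in 1 adult cell. Macf1, a giant linker of actin and microtubules, had counts in 6 cultured cells, 6 in A, 170 in B, 18 in C, 222 in D, 38 in E and 2 in H. It stood at 2212 CPM there (1312 without D), 27.6 CPM in 3 transplanted cells (15.6 without H) and 23.6 CPM in 2 adult cells (0.867 without B). Of the 18 longest genes with at least 10 counts, 15 were at least 2-fold lower in transplanted than in cultured sums and none was higher, while 64% of all 4958 genes were lower and 22.5% higher. Against cultured cells, 16 of 19 were lower and 1 was higher in adult cells, where 62.1% of 5132 genes were lower and 23% higher. Several of the lower genes, such as Syne1 (61 cultured counts) and Mkln1 (28), had no count in transplanted or adult cells. They passed the minimum through cultured cells alone. Fry, with 32 transplanted and no cultured count, counted as neither, since 3 cultured counts are 14.6 CPM. These counts are therefore not read as a result about long genes.

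Partners of titin were taken from a list of 38 proteins of the Z-disc, I-band and M-band, of which 35 were listed. In transplanted against cultured sums 13 of 29 with at least 10 counts were at least 2-fold higher, 14 lower and 2 neither, beside the 22.5% higher and 64% lower of all genes. Their median log2 ratio was -0.21, against -5.63 for all genes. In adult against cultured sums 16 of 30 were higher and 9 lower, beside 23% higher and 62.1% lower of all genes. The median log2 ratio of these partners was 1.53 (1.15 with genes at 0 set to 3 counts) against -3.85. The summed share of the 12 cardiomyocyte markers was higher in transplanted and adult than in cultured cells, although Myl7 and Ryr2 were lower in both. Myh6 was lower too, with ratios of 0.406 and 0.543 (0.762 and 1.02 without cultured D). Relative to these 12 markers, 3 partners (Csrp3, Myoz2 and S100a1) were higher and 18 lower in transplanted cells. In adult cells 4 were higher and 19 lower. On that scale 1.31% of all genes were higher and 82.7% lower in transplanted cells, and 1.54% higher and 81.3% lower in adult cells. With TMM factors 13 partners were higher and 10 lower in transplanted cells, beside 29.0% and 60.4% of all genes, and 19 were higher and 7 lower in adult cells, beside 30.5% and 57.8%. The partners that were higher in transplanted cells on total counts had a median exon length of 2697 bases, and those that were lower one of 6607.5 bases. Over all genes the medians were 2879 bases for the 1111 higher and 5828 bases for the 3147 lower genes with an annotation.

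At the Z-disc, Csrp3, muscle LIM protein, stood at 4660 CPM in 8 transplanted and 5536 CPM in 8 adult cells against 97.0 CPM in 2 cultured cells (5.26 without E). Cryab, a small heat shock protein that binds the titin spring, had 3452 CPM, 3679 CPM and, in 2 cultured cells, 136 CPM (59.0 without A, 89.7 without C). Actn2, sarcomeric alpha-actinin, had 1207 CPM in 7 transplanted, 1326 CPM in 8 adult and 67.9 CPM in 2 cultured cells (11.2 without D). Tcap, the telethonin that caps the titin end, had no count in cultured cells, 176.5 CPM in 4 transplanted cells and 483 CPM in 6 adult cells (174 without A). Per exon base these partners lay below Ttn in the cultured sum, with TPM levels of 271 for Cryab, 107 for Csrp3 and 52.8 for Actn2 against 1140 for Ttn. Ldb3, a PDZ and LIM domain protein that binds alpha-actinin, went with Ttn instead, with 22, 9, 76 and 6 counts in cultured B to E and none in the others, 548 CPM in all (208 without D), against 82.1 CPM in 4 transplanted cells (32.2 without B) and 176 CPM in 6 adult cells.

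At the I-band, S100a1, a calcium-binding protein that binds the spring region, had 3634 CPM in 8 transplanted, 4268 CPM in 8 adult and 43.7 CPM in 3 cultured cells (16.3 without G). Fhl2, a LIM protein of the spring region and the M-band, had 2881 CPM in 8 transplanted and 1513 CPM in 8 adult cells, and its 15 cultured counts were all in cell A. Fhl1 had no count in any cell. At the M-band, Myom1, myomesin, had its highest level in the cultured sum, as Ttn did. Its cultured counts were 10 in A, 56 in B, 49 in C and 6 in E, with none in D. Cell by cell it did not track Ttn throughout, since cultured D held 2849 Ttn counts and A only 14. Adult G, with 1355 Ttn counts, had no Myom1 count either. Myom1 stood at 587 CPM in the cultured sum (380 without C), 69.1 CPM in 3 transplanted cells (17.8 without B) and 124 CPM in 5 adult cells (78.9 without B). Trim63, a ubiquitin ligase that binds titin near the M-band, had 184 CPM in 5 transplanted (106 without D) and 124 CPM in 4 adult cells (80.0 without G), and its cultured counts were all in A.

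**Figure D4:**
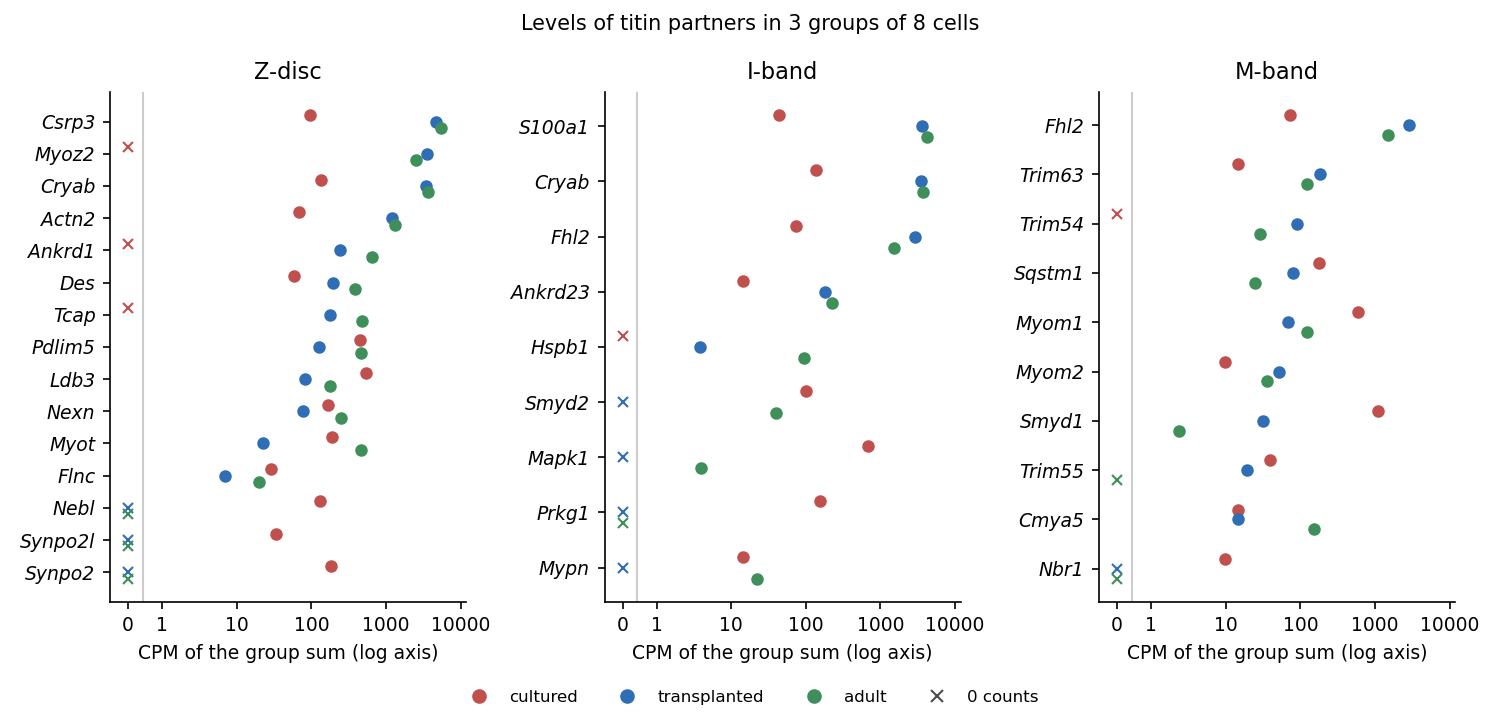
Levels of Z-disc, I-band and M-band partners of titin as CPM of the sum over 8 cells, on a log axis, in cultured, transplanted and adult cells, with crosses at the left for groups with 0 counts. Fhl2 and Cryab belong to more than 1 list; Csrp3, S100a1 and Fhl2 lie far to the right of the cultured points, while Ldb3 and Myom1 have their highest level in cultured cells.

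In adult against transplanted sums 12 of 27 partners were at least 2-fold higher and 4 lower, beside 44.3% higher and 34.8% lower of all 3501 genes. The higher share, 12 of 27, was near that of all genes. Tcap was 2.74-fold higher (2.35 to 3.20), the same direction as Ttn, while Actn2, at 1.10-fold (1.02 to 1.18), and Cryab, at 1.07-fold (1.02 to 1.11), stayed near 1. Without adult A, Tcap stood at 174 CPM against 176.5 CPM in transplanted cells, so its ratio rested on that cell.

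The filament lists set Ttn beside the proteins it aligns. Of 8 measured thick filament genes, 3 (Myl2, Myl3 and Mybpc3) were at least 2-fold higher in transplanted than in cultured sums and 5 (Myh6, Myh7, Myl4, Myl7 and Mybphl) lower, beside 64% of all genes lower. The share of lower genes, 5 of 8, was near that of all genes. The transplanted to cultured ratio of Myh6 was 0.406, but 0.762 without cultured D. With TMM factors 4 of the 8 were lower, beside 60.4% of all genes. Mybpc3, the myosin binding protein that lies on the filament beside titin, had no cultured count, 655 CPM in 7 transplanted cells and 325 CPM in 7 adult cells. Of 11 measured thin filament genes, 7 were higher and 3 (Acta2, Tnni1 and Tpm2) lower. Beside the 22.5% of all genes that were higher, 7 of 11 thin filament genes thus went opposite to Ttn on total counts. Of these, Tmod1 rested on transplanted E, with a ratio of 2.02, but 0.0116 without that cell. The cultured counts of Tnnc1 and Tnni3 were all in cell A. Relative to the cardiomyocyte markers, of which several are themselves filament genes, 2 of the 11 were higher and 4 lower. On that scale 1.31% of all genes were higher and 82.7% lower.

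Splicing factors that act on titin RNA, apart from Rbm24, were sparse outside the cultured cells. Rbm20, whose loss leads to more compliant titin, had 5 counts in 3 cultured cells, 1 in transplanted and none in adult cells. Its level was 24.3 CPM (exact Poisson interval 7.87 to 56.6) in cultured and 0.768 CPM (0.0194 to 4.28) in transplanted cells, and its upper limit was 2.90 CPM in adult cells. On total counts 7 of 7 measured members were at least 2-fold lower in both transplanted and adult than in cultured sums, where 64% and 62.1% of all genes were. Ptbp1, Celf1, Mbnl1, Srsf10 and Srpk2 had no transplanted count and at most 7 adult counts. They passed the minimum through cultured cells alone, so 7 of 7 is not read as a result about splicing factors. With TMM factors 6 were lower in both, beside 60.4% and 57.8% of all genes. With DESeq2 size factors 6 were lower in transplanted cells, beside 63.0%, and 7 in adult cells, beside 61.4%. Rbm24, a muscle splicing factor, had 32 counts in cultured, 89 in transplanted and 69 in adult cells, the adult ones all in G. Its ratio in transplanted cells was 0.440, but 0.611 without cultured F and 0.142 without transplanted B. The median log2 ratios of the 7 members were -8.04 and -6.16, against -5.63 and -3.85 for all genes. With genes at 0 set to 3 counts they were -7.41 and -6.38, against -4.53 and -4.04. Srpk2, a kinase of splicing factors, had 955 CPM in 7 cultured cells and no count elsewhere.

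Genes beside Ttn on chromosome 2 did not share its pattern as a group. Within 1 Mb on either side lay 9 listed genes, of which Agps, Fkbp7, Plekha3, Rbm45 and Zfp385b had at most 9 counts in any group. Ccdc141, the next listed gene upstream on the same strand (77009902 to 77170636), had 91, 42 and 31 counts in cultured B, C and E and none in D, against 2 counts in transplanted and none in adult cells. Sestd1 had 23, 17 and 7 counts in cultured C, F and G, of which F and G had no Ttn. Ttc30a1 had 285 counts in transplanted D and 1 elsewhere. Nfe2l2 had 35 counts in 2 transplanted cells and none elsewhere.

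Genes with the order over cells most like that of Ttn were found among 781 genes with counts in at least 8 of the 24 cells. Of the 8 highest Spearman coefficients over 24 cells, 7 belonged to Psme4 (0.775), a proteasome activator, Slk (0.752), a protein kinase, Srl (0.731), the calcium-binding sarcalumenin of the sarcoplasmic reticulum, Ldb3 (0.706), Ryr2 (0.704), Myh6 (0.699) and Svil (0.683), an actin-binding membrane protein. These 7 had no count in cultured F, G and H. Srl, for example, stood at 0, 905, 5974, 5092 and 4286 CPM in cultured A to E, and Ryr2 had 9, 42, 51, 24 and 68 counts there. Without cultured C and D, the cells farthest from the median Ttn share, the coefficients were 0.576 to 0.708. Within the 8 transplanted cells they ran from 0.109 (Svil) to 0.846 (Slk), and within the 8 adult cells from -0.299 (Ldb3) to 0.8095 (Myh6). Psme4, Srl and Svil had counts in only 2 transplanted cells each and Slk in 3, so both transplanted extremes rest on few cells. Depth differed between the groups and the cells of a group share their source, so these coefficients carry no p.

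At the other end, the 4 lowest coefficients belonged to the ribosomal protein genes Rpl32l (-0.679), Rpl39 (-0.669), Rpl22 (-0.660) and Rps9 (-0.654). Ribosomal protein genes have many near-identical copies, so their counts are uncertain. Within the transplanted cells the coefficients of Rpl39 and Rpl32l were -0.00 and -0.268, while those of Rpl22 and Rps9 were -0.634 and -0.619. Within the adult cells they were -0.048 for Rps9, -0.051 for Rpl39, -0.146 for Rpl32l and -0.483 for Rpl22, which had counts in only 2 adult cells. Over the 8 cultured cells alone, where 742 genes had counts in at least 4, the highest belonged to Srl (0.962) and Myh6 (0.95). Below them genes were tied at 0.936, among them Dazap2, Ldb3, Svil and Mdm4, a regulator of p53.

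**Figure D5:**
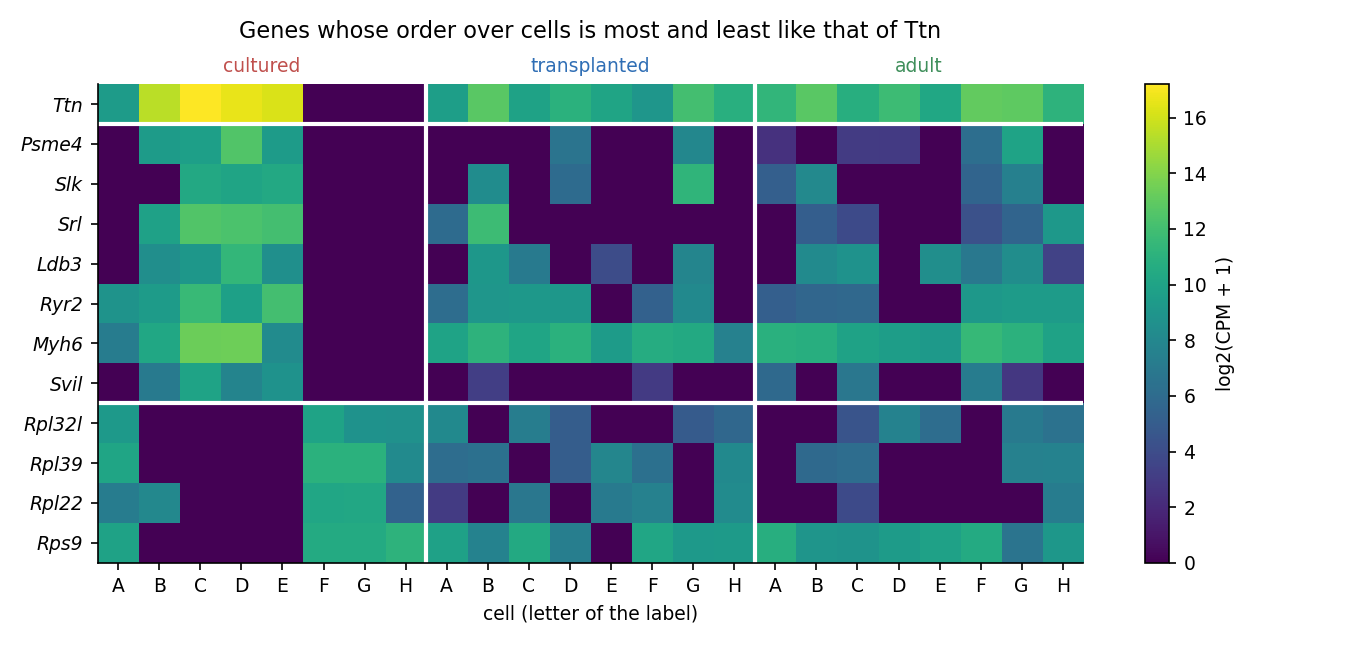
Levels as log2(CPM + 1) in the 24 cells (columns, letters within each group) of Ttn, 7 of the 8 genes with the highest and the 4 with the lowest Spearman coefficient to Ttn over all cells (rows, separated by white lines). The 7 upper genes are at 0 in cultured F, G and H, as Ttn is, and the 4 lower genes have counts there.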

How the data were processed

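The authors deposited whole-number read counts per gene for 24 cells. Per the submitters' processing notes, TopHat2 2.1.0, HTSeq, DESeq2 and the build mm10 were used. The sources used here do not give their roles, the annotation, the strand setting or how the listed genes were selected. Per the labels' protocols, cells were sorted or hand-picked and full-length cDNA was amplified and cut with Tn5. Of 9595 listed genes, 9343 symbols matched GENCODE M21 directly and 180 by an older name. The totals count listed genes only.

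Counts were summed over the 8 cells of a group. CPM carry exact Poisson intervals, ratios exact conditional binomial intervals and shares of a cell exact Clopper-Pearson intervals (95%). Counts of any 2 cells within a group differed by more than sampling noise (chi-square per degree of freedom at least 13.6), so none was counted as a repeated deposit of another. A gene counts as higher or lower at 2-fold or more with at least 10 counts over both groups. Against 0 counts the ratio was taken to 3 counts over the group. As cultured totals were smaller, this rule favours lower over higher in the comparisons with cultured cells. The gene and the lists were chosen with earlier results of these data known. Named genes are Ttn, list members and the 8 highest and 4 lowest Spearman coefficients, with the 5 highest within cultured cells (ties in order of name). The text prints some of them, and 1 gene that the rule names is not reported here. The calculations were tested on simulated data. Alternatives were TMM factors (edgeR 4.0.16), DESeq2 1.42.0 size factors, other totals, equal cell weights, transcript lengths, other minimums and leaving out each cell.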

Additional observations from a re-analysis of the deposited data

Results flagged for a closer look

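In transplanted cell H the per-base ratio of Ttn to Myh6 and Myh7 together was 0.557, against 0.0188 to 0.185 in the other 7 transplanted cells. Its gap to the next cell was 0.692 of the group's range, above Dixon's 95% critical value for 8 values, which is used here only to point the value out. It was the only value past this criterion among 9 sets of cells examined (Ttn share, this ratio and the share of the longest genes, in each group), and chance passes about 1 in 20. Cell H also had the largest total of all cells, 344224 counts.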

How the results depend on the processing

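The direction of the 3 Ttn ratios held under every scaling tried and without any 1 cell. The transplanted to cultured ratio, 0.0472, was 0.0452 without Ttn in the total, 0.0432 without Rpph1 and Rn45s, 0.0414 on 9114 protein-coding genes, 0.00197 on the cardiomyocyte markers, 0.0893 with TMM factors, 0.0552 with DESeq2 size factors, 0.0501 with equal cell weights and 0.0269 as TPM (0.0352 to 0.0594 without 1 cell). The adult to cultured ratio, 0.0899, was 0.0862, 0.0822, 0.0789, 0.00417, 0.170, 0.0988, 0.0934 and 0.0512 in that order (0.0767 to 0.113 without 1 cell). The adult to transplanted ratio, 1.90, was 2.11 on the cardiomyocyte markers and 1.79 with DESeq2 size factors (1.62 to 2.55 without 1 cell). With equal cell weights, or with counts scaled to the shallowest cell, the levels were 46968 CPM in cultured, 2352 CPM in transplanted and 4385 CPM in adult cells, and the medians over cells were 22438, 1461 and 3034 CPM. Without 1 cell they spanned 35874 to 51023, 1589 to 2342 and 3458 to 4424 CPM. The partner counts stayed within 1.5 times with other minimums, TMM factors, DESeq2 size factors and without any 1 cell (without 1 cell, 12 to 13 higher and 11 to 14 lower, then 14 to 17 and 7 to 9, then 10 to 15 and 3 to 5, in the order of the ratios). On the cardiomyocyte markers 3 were higher and 18 lower in transplanted cells (1.31% and 82.7% of all genes), and 4 higher and 19 lower in adult cells (1.54% and 81.3%), against cultured cells. Per myosin heavy chain, Ttn spanned 0.598 to 0.942 in cultured, 0.0891 to 0.129 in transplanted and 0.135 to 0.170 in adult cells without 1 cell. Of the 8 genes most like Ttn, 4 remained with counts required in at least 12 cells, since fewer genes were then tested, 6 with Pearson's r and 6 without cultured C and D. The cause of the other shifts was not tested. Depth limits the cultured cells most: 3 counts there are 14.6 CPM of the sum, against 2.30 in transplanted and 2.36 in adult cells.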
